A study of Homo sapiens with 105 samples.

Results

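The genes described here are 40 members of the programme that human cells switch on through the transcription factor ATF4 when amino acids run short or protein synthesis is stressed. They were listed by name, with earlier results of these data known. They are ATF4 itself, its partner factors and brakes, and genes linked to it in amino acid synthesis and transport, one-carbon metabolism and the charging of tRNA. All 40 were found once in the deposited count table of 63241 genes, and all 40 were among the 18775 genes that passed the filter on low counts and were tested. INHBE passed that filter at a median of 0.593 CPM (read counts scaled to each library's TMM-adjusted total) over the libraries, so that a library held few reads of it.

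ATF4 is made from an mRNA whose translation increases when kinases that sense amino acid shortage, unfolded protein, double-stranded RNA or lack of haem phosphorylate the initiation factor eIF2, while most other translation is held back. ATF4 then binds C/EBP-ATF response elements near the start of its target genes, together with C/EBP family partners, and raises the carriers, synthetic enzymes and tRNA ligases that restore the amino acid supply. The intestinal epithelium takes up dietary amino acids and turns over fast, and in long stress the same pathway induces DDIT3 (also called CHOP), CHAC1 and TRIB3, which limit growth and survival.

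The cells were Caco-2, an established line from a human colon adenocarcinoma, grown in medium that was renewed when the treatment began. They were incubated with membrane vesicles (MVs) of Lacticaseibacillus casei (1.5e+11 vesicles) or Enterococcus faecalis (7.5e+09), or with outer membrane vesicles (OMVs) of Proteus mirabilis (6.0e+09), and PBS was the control. Other cultures were transfected by Lipofectamine with RNA from those vesicles, at 100 ng for L. casei, 5 ng for E. faecalis and 2 ng for P. mirabilis, and non-targeting siRNA at 100, 5 or 2 ng was the control. P. mirabilis LPS was added to the medium at 0.2 or transfected at 1, in ng per µl according to the labels, whereas the study's methods give ng per ml. Cells were harvested at 10 and 24 h, and the L. casei, PBS and 100 ng siRNA groups also at 48 h. The deposited values were raw read counts per gene from total RNA in 28 groups, 21 with 4 libraries and 7 with 3.

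The 39 libraries from lanes 2 to 4 of flow cell 1 were set aside, which left 66 libraries with 2 to 4 in each group. Outside those lanes 65 of 66 libraries correlated best with a class of libraries of their own labelled time, and inside them 12 of 39 did. The classes (by time and replicate number) and the genes compared came from the 66 libraries alone, so these shares are not like for like. Among the 66, replicates 4 and 5 had 5 and 3 libraries at 10 h and 1 each at 24 h. At 48 h replicate 5 had 1 library and replicate 4 none. Total counts of the 66 libraries ran from 632659 to 8558755 with a median of 5563438. Of 8 epithelial markers, 7 had medians from 202.5 CPM (CDX2) to 3316 CPM (KRT8), and KRT20 had 2.13 CPM. Of 6 blood cell markers, PTPRC had a median of 0 CPM, but CD14 had 5.70 CPM and LYZ 78.0 CPM. Of 6 markers of fibroblasts and endothelium, DCN and COL1A2 had a median of 0 CPM, but PECAM1 had 4.94 CPM and COL1A1 33.9 CPM. Each comparison below is the edgeR quasi-likelihood test with a replicate block, a gene passed at a Benjamini-Hochberg adjusted p under 0.05 over all 18775 genes, and log2 fold changes are given ± SE.

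The promoters are shown first, because ATF4 acts through a short element in them. RefSeq promoters (250 bases before to 50 after an annotated start) were at hand for 32 of the 40 genes, and 14 of the 32, or 43.75%, held the core TGATGNAA or its reverse complement TTNCATCA. Of all 27305 genes with such a promoter, 1217 held it, which is 4.46%. The members were listed for their link to ATF4, so a higher share is built into the choice. They also had 53 promoters searched for the 32 genes, against 35116 for the 27305. The windows below come from the 8 genes with the core that changed most among those that rose with L. casei MVs at 48 h, and the core is in capitals.
MTHFD1L: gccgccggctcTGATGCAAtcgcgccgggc
SLC7A1: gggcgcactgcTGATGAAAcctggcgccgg
MARS1: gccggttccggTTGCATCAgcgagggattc
TARS1: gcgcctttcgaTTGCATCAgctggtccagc
GARS1: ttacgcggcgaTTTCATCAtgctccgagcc
IARS1: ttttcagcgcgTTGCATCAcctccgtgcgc
SLC3A2: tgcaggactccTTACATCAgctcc
SLC1A5: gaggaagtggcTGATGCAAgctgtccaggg

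Each window is written 5′ to 3′ on the strand of its gene, in build GRCh38.p14. Those on the plus strand were MTHFD1L at chr6:150866346-150866375, MARS1 at chr12:57488053-57488082, TARS1 at chr5:33440956-33440985, GARS1 at chr7:30594834-30594863 and SLC3A2 at chr11:62881725-62881748. Those on the minus strand were SLC7A1 at chr13:29595663-29595692, IARS1 at chr9:92293692-92293721 and SLC1A5 at chr19:46784893-46784922. The windows of SLC1A5, MARS1, GARS1 and SLC3A2 began 3672, 12608, 14301 and 25721 bases downstream of the first base that GENCODE gives for the gene, and thus not at that base. Of the RefSeq promoters of a gene, the core lay in 1 of 3 for SLC1A5 and for SLC3A2, in 1 of 2 for GARS1 and for TARS1 and in 3 of 4 for MTHFD1L. The core was also found at ATF3, CEBPG, CHAC1, ASNS, AARS1 and NARS1. Of the 20 members that rose with L. casei MVs at 48 h, 16 had a promoter in the table and 9 of these held the core. Of the other 20 members 16 had a promoter and 5 held the core. A match of these letters is a description of the sequence and was not measured as binding.

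Cells given L. casei MVs for 48 h had higher mRNA of 20 of the 40 members than cells given PBS for 48 h, and no member was lower. Of all genes tested, 1.61% were higher and 1.15% lower in that comparison. The members' median log2 fold change was 0.47, and that of all genes was 0.01. None of the 8 epithelial, 4 blood cell and 3 fibroblast or endothelial markers tested passed, though the summed epithelial level was 4120 and 4758 CPM with PBS and 5035 and 5689 CPM with MVs, and the part of this in the result was not tested. Without 1 library in turn the count was 7 without replicate 2 of the MVs, 10 without replicate 3 of the MVs, 10 without replicate 2 of PBS and 9 without replicate 5 of PBS, and without the replicate block it was 7. In comparisons of a treatment, a gene said to rise was higher than in the comparison group of the same time. The word does not describe a change over time with the treatment. Of the 20 members, 17 were lower with PBS at 48 h than at 24 h, where 10.7% of all genes were lower. Both results use the PBS libraries at 48 h. The genes that rose were carriers of cystine and of cationic and neutral amino acids, mitochondrial one-carbon enzymes, tRNA ligases, and ATF4 and its partner CEBPB.

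ATF4 was at 204 and 152 CPM in the libraries of PBS at 48 h (replicates 2 and 5) and at 284 and 241 CPM in those of L. casei MVs (replicates 2 and 3). Both libraries with MVs lay above both with PBS, and the change was 0.53 ± 0.09 (adjusted p = 0.00029), a fold of 1.44. CEBPB, which encodes a C/EBP factor that pairs with ATF4, stood at 17.3 and 32.3 CPM with PBS and at 53.8 and 56.5 CPM with MVs, also without overlap, and rose by 1.01 ± 0.22. TRIB3, a pseudokinase that feeds back on ATF4 and DDIT3, was at 73.2 and 41.5 CPM with PBS and at 117 and 78.7 CPM with MVs (0.71 ± 0.19). DDIT3 (CHOP) did not pass, at 13.8 and 15.01 CPM with PBS and 18.6 and 10.5 CPM with MVs, where the libraries with MVs lay on both sides of those with PBS (0.15 ± 0.19, adjusted p = 0.77). ATF3, ATF5 and CEBPG did not pass either.

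SLC7A11, the cystine-glutamate exchanger that feeds glutathione synthesis, showed the largest change among the members with more than a few counts. Its level was 3.71 and 4.24 CPM with PBS and 14.1 and 18.2 CPM with L. casei MVs. Every library with MVs exceeded every library with PBS, and the change of 1.78 ± 0.24 (adjusted p = 7.5e-07) is a fold of 3.43. SLC7A1, a carrier of arginine and lysine, was at 83.8 and 74.4 CPM with PBS and 181 and 162 CPM with MVs (1.17 ± 0.20). SLC7A5, the large neutral amino acid carrier, was at 125 and 157 CPM with PBS and 252 and 263 CPM with MVs (0.85 ± 0.16). The levels did not overlap for either carrier. SLC3A2, the heavy chain that SLC7A5 and SLC7A11 need at the membrane, rose by 0.37 ± 0.10, and the glutamine carrier SLC1A5 by 0.35 ± 0.10. SLC38A2 was the only one of the 6 carriers that did not pass (0.10 ± 0.09).

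All 3 mitochondrial one-carbon enzymes of the formate route rose. MTHFD2, which oxidises methylene-tetrahydrofolate in mitochondria, was at 37.8 and 46.3 CPM with PBS and at 83.0 and 101.3 CPM with MVs (0.92 ± 0.12, adjusted p = 5.2e-07). MTHFD1L, the formate-releasing synthetase, was at 14.03 and 17.5 CPM with PBS and 34.3 and 37.3 CPM with MVs (1.18 ± 0.30). SHMT2, which takes the one-carbon unit from serine, rose by 0.40 ± 0.10. For MTHFD2 and MTHFD1L the PBS libraries at 48 h were the lowest of the 66. The fourth enzyme of the group, ALDH1L2, did not pass (0.84 ± 0.51).

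In amino acid synthesis, PSAT1, the aminotransferase of the serine pathway, was at 7.84 and 13.2 CPM with PBS and 17.2 and 19.7 CPM with MVs (0.77 ± 0.19, adjusted p = 0.0097). PYCR1, which completes proline synthesis, rose by 0.48 ± 0.12. The other serine enzymes PHGDH (0.12 ± 0.08) and PSPH (-0.11 ± 0.11), the proline enzyme ALDH18A1 (0.15 ± 0.08) and the alanine aminotransferase GPT2 (-0.09 ± 0.11) did not pass. Asparagine synthetase, ASNS, is a classic ATF4 target but had only 10 and 4 counts with PBS and 25 and 8 counts with MVs, and it did not pass (0.76 ± 0.51, adjusted p = 0.49). Of its 4896 exonic bases, 2415 overlap another annotated gene on the same strand, ENSG00000284707, and the study's methods list no featureCounts option that counts reads shared by overlapping genes, which the tool by default leaves uncounted, so its values are uncertain.

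Among tRNA ligases, TARS1 (threonine) was at 62.3 and 68.2 CPM with PBS and 89.7 and 116 CPM with MVs (0.54 ± 0.10, adjusted p = 0.00047). MARS1 (methionine, 0.54 ± 0.14), GARS1 (glycine, 0.46 ± 0.09), IARS1 (isoleucine, 0.45 ± 0.11) and AARS1 (alanine, 0.29 ± 0.08) also rose. Those for tryptophan (WARS1), serine (SARS1), asparagine (NARS1) and tyrosine (YARS1) and the bifunctional EPRS1 did not pass, which gave 5 of 10. MARS1 shares 355 exonic bases with DDIT3 on the opposite strand, of 7028 in MARS1 and 1307 in DDIT3, and the methods list no strand option for the counting. Opposite-strand overlaps were also annotated for other members, among them SLC7A11 (865 of 9645 bases), MTHFD2 (1324 of 11443) and SLC1A5 (780 of 3332). PYCR1 shares 408 of its 2886 bases on the same strand and 450 on the opposite one. The effect of these overlaps on the counts was not tested.

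GDF15, a secreted stress factor that reduces appetite, was at 13.0 and 14.3 CPM with PBS and 36.5 and 44.96 CPM with MVs (1.25 ± 0.35, adjusted p = 0.041). INHBE, an inhibin subunit, had 1 count in each library with PBS and 13 and 10 counts with MVs. Its CPM ratio was 9.81, with an exact 95% counting interval of 2.42 to 85.9, which covers counting error only. DDIT4, which inhibits mTORC1, and CHAC1, which degrades glutathione, had large but scattered changes that did not pass (1.14 ± 0.65 and 1.18 ± 0.58). SESN2, a sestrin that restrains mTORC1, did not pass, at 15.5 and 13.8 CPM with PBS and 13.9 and 12.9 CPM with MVs (-0.17 ± 0.21). Nor did VLDLR, a receptor of lipoproteins and reelin, at 1.65 and 1.94 CPM with PBS and 2.21 and 7.02 CPM with MVs (0.63 ± 0.41).

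**Figure D1:**
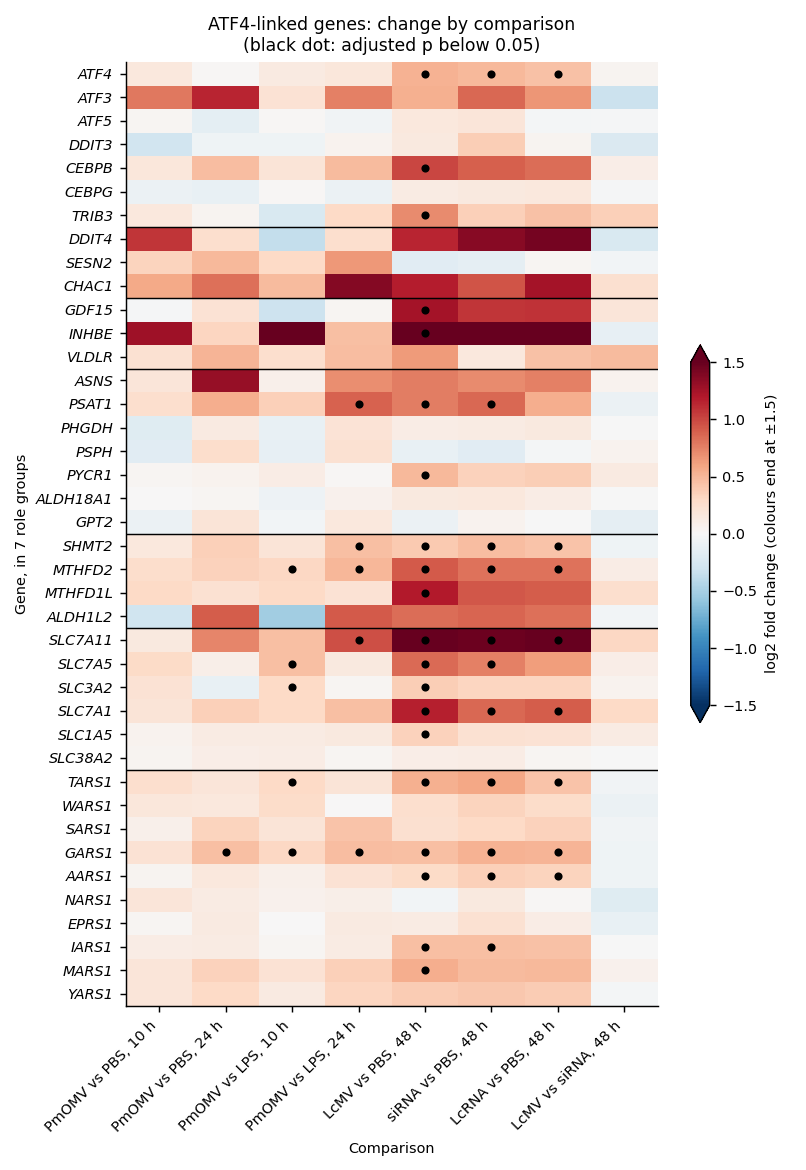
Log2 fold change of the 40 genes (rows, in 7 role groups) in 8 comparisons (columns), red for higher and blue for lower in the group named first, with a dot where the adjusted p was below 0.05. Dots mark 20 of the 40 genes in the column of L. casei MVs against PBS at 48 h. They mark 11 and 8 genes for siRNA and L. casei RNA against the same PBS group. The column of MVs against siRNA at 48 h is pale and has none.

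Transfected cells also exceeded PBS at 48 h. Cells given 100 ng of siRNA for 48 h had 11 members higher than PBS at 48 h, where 0.25% of all genes were higher, and none lower. All 11 were among the 20 that rose with MVs. L. casei RNA for 48 h had 8 members higher than PBS, where 0.186% of all genes were higher. The 8 were ATF4, SHMT2, MTHFD2, SLC7A11, SLC7A1, TARS1, GARS1 and AARS1, and all 3 groups shared them. These 3 comparisons use the same PBS libraries, so that a low PBS library enters each of them. The count for siRNA was 19 without its replicate 2, 2 without its replicate 3, 1 without replicate 2 of PBS and 7 without replicate 5 of PBS, and it was 4 without the block. For L. casei RNA it was 1 without its replicate 3, 1 without replicate 2 of PBS and 2 without replicate 5 of PBS, and 2 without the block.

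For SLC7A11 the libraries of siRNA at 48 h had 11.5 and 14.4 CPM and those of L. casei RNA 9.05 and 16.9 CPM, against 3.71 and 4.24 CPM with PBS, and the changes were 1.47 ± 0.25 and 1.50 ± 0.25. For ATF4 they had 253 and 259 CPM with siRNA and 265 and 230 CPM with RNA (0.49 ± 0.09 and 0.44 ± 0.09). For MTHFD2 the changes were 0.81 ± 0.12 and 0.82 ± 0.12. In each of these genes every transfected library lay above both PBS libraries. INHBE, with 20 and 8 counts for siRNA, had a ratio to PBS of 10.9 (exact 95% counting interval 2.76 to 94.7) and did not pass the test there (adjusted p = 0.070).

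L. casei MVs against siRNA at 48 h called none of the 40 genes by edgeR, where 0.0213% of all genes passed, and DESeq2 also called 0. At an unadjusted p under 0.05, 1 member was higher and 0 lower, where 2.83% of all genes were higher and 3.48% lower. The median log2 difference of the members was 0.00 and their range was -0.32 to 0.47, with a median SE of 0.13. SLC7A11 differed by 0.31 ± 0.17, TRIB3 by 0.35 ± 0.17 and ATF4 by 0.04 ± 0.09. L. casei RNA against siRNA at 48 h also had 0 members past the test, where 0% of all genes passed.

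By the median over the members, the PBS libraries at 48 h held the lowest levels of the 66, and they were replicates 2 and 5, whereas the other 48 h groups kept replicates 2 and 3. Within replicate 2 alone, 36 of the 40 members had a higher CPM with L. casei MVs than with PBS, at a median log2 ratio of 0.45. For siRNA 34 members were higher in replicate 2 (median 0.27), and for L. casei RNA 35 were higher (median 0.30). Over all genes tested the shares higher in these 3 pairs of libraries were 52.8%, 52.1% and 52%, and the medians were 0.02, 0.01 and 0.02. Each is 1 library against 1 and has no replicate check. The replicate 2 library of PBS at 48 h was sequenced on flow cell 1 and the other libraries of this time on flow cell 2, so that for this library flow cell and treatment cannot be told apart.

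Beyond the 40 members, other genes of the same pathway were listed by role, to be read against the 1.61% of all genes higher and 1.15% lower in L. casei MVs against PBS at 48 h. In that comparison 1 of 13 genes for eIF2, its kinases and its phosphatases rose, PPP1R15A, which restores translation (0.62). Of 15 tested genes among further ATF4 targets, PCK2, the mitochondrial PEP carboxykinase (0.54), and the secreted glycoprotein STC2 (0.81) rose. Among 10 other cytosolic tRNA ligases CARS1 (cysteine) rose (0.55), and of 17 mitochondrial tRNA ligases none did. Of 15 other amino acid carriers 1 fell, the lysosomal SLC38A9 (-0.45), and of 9 other one-carbon and serine enzymes none passed. In L. casei RNA against PBS at 48 h PCK2 (0.47, adjusted p = 0.044) and CARS1 (0.54, adjusted p = 0.042) also rose, and in siRNA against PBS none of the listed genes passed.

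In the controls, members of the programme fell with time after the medium was renewed. Over PBS and siRNA controls, 16 members were lower and 5 higher at 24 h than at 10 h, where 17.4% of all genes were lower and 16.9% higher. From 24 to 48 h, 23 members were lower and 1 was higher, where 16.2% of all genes were lower and 13% higher. The median log2 change of the members was -0.13 in the first interval and -0.33 in the second, and that of all genes was 0.00 in both. With all deposited libraries, 9 members were lower and 2 higher in the first interval and 0 passed in the second. Under that setting 25.6% and 19.5% of all genes had an unadjusted p under 0.05 in the 2 intervals. In the 66 libraries 16 members were lower in both intervals, and the share of all genes lower in both is not given here. These 16 included the carriers SLC7A5, SLC3A2, SLC7A1 and SLC1A5, the enzymes MTHFD2, MTHFD1L, PSAT1 and PYCR1, and 7 tRNA ligases.

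SLC7A5 was one of these 16. With PBS it was at 730 and 632 CPM at 10 h, 318 and 410 CPM at 24 h and 125 and 157 CPM at 48 h. With 100 ng siRNA it was at 659, 635, 696 and 664 CPM at 10 h, 331 and 407 CPM at 24 h and 190 and 298 CPM at 48 h. No library of one time overlapped with one of another in either control. Over the controls it fell by 0.79 on the log2 scale from 10 to 24 h (SE 0.07) and by a further 0.97 from 24 to 48 h (SE 0.11).

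From 10 to 24 h each control was also taken alone. PBS had 7 members lower and 1 higher, where 4.23% of all genes were lower and 2.92% higher. For 100 ng siRNA 10 were lower and 2 higher, where 7.51% were lower and 6.59% higher. For 5 ng siRNA 7 were lower and 3 higher, where 6.39% were lower and 6.07% higher, and for 2 ng siRNA 6 were lower and 1 higher, where 3.18% were lower and 3.11% higher. ATF4 mRNA itself did not pass in either interval over the controls (-0.04 ± 0.04 and -0.13 ± 0.06), and neither did DDIT3 (-0.15 ± 0.09 and -0.09 ± 0.13). ASNS did not pass, at -0.38 ± 0.27 and 0.81 ± 0.40.

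DDIT4 moved in the other direction, with 1.14 ± 0.41 higher from 10 to 24 h and 1.35 ± 0.47 from 24 to 48 h. Its replicates differed widely at 48 h, with 26.3 and 135 CPM for siRNA and 16.3 and 22.4 CPM for PBS. PHGDH (0.37 ± 0.04), GPT2 (0.26 ± 0.05), CEBPB (0.34 ± 0.10) and INHBE (1.81 ± 0.47) were also higher at 24 h than at 10 h, and of these GPT2 was lower again at 48 h (-0.42 ± 0.07). INHBE had at most 2 counts in any library of PBS or 100 ng siRNA at 10 h.

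**Figure D2:**
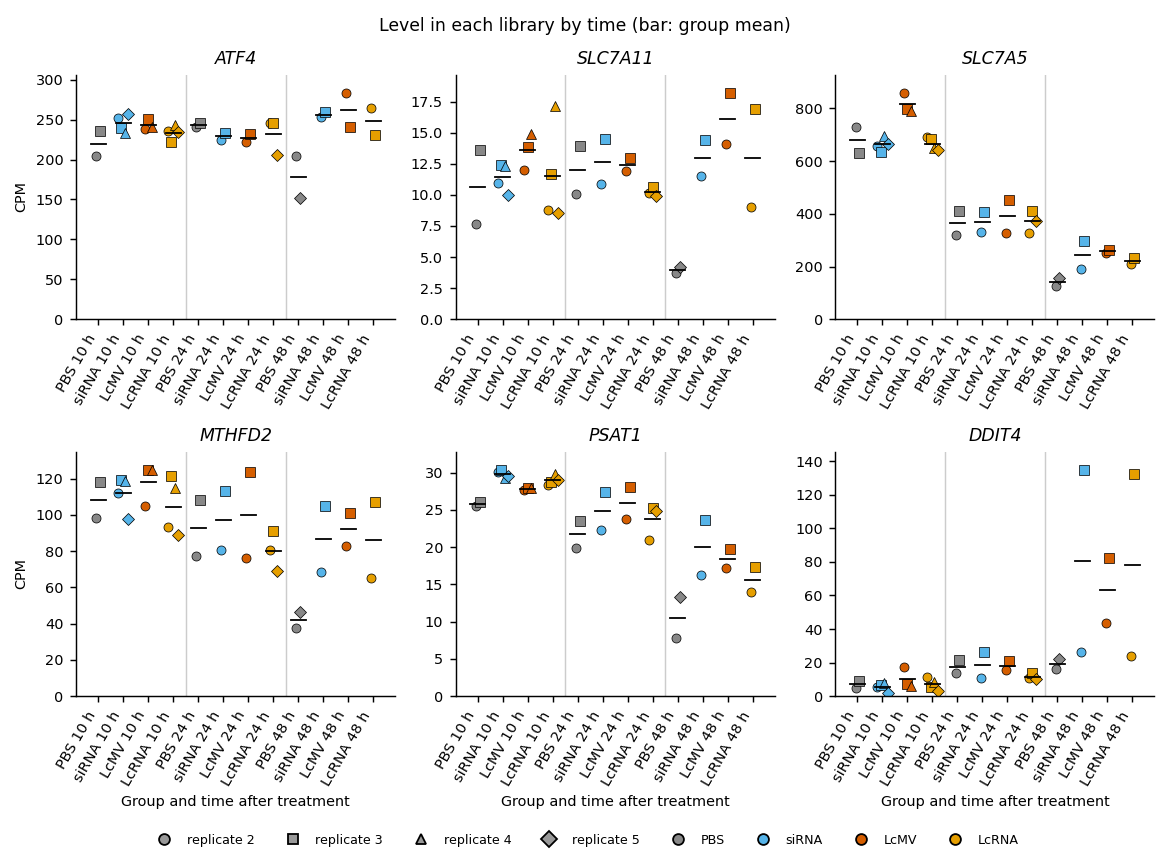
CPM of 6 genes in each library of PBS, 100 ng siRNA, L. casei MVs (LcMV) and L. casei RNA (LcRNA) at 10, 24 and 48 h, with marker shapes for replicate numbers and bars for group means. SLC7A5 falls in all 4 groups, SLC7A11 is at 3.71 and 4.24 CPM in PBS at 48 h, and DDIT4 reaches 135 CPM in replicate 3 of siRNA at 48 h.

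From 24 to 48 h each control was also taken alone, and the difference between their changes was not tested. PBS had 24 members lower and 0 higher, where 10.7% of all genes were lower, and 100 ng siRNA had 13 lower, where 8.34% of all genes were lower, and 2 higher (TRIB3 and DDIT4), where 6.92% were higher. With all deposited libraries 0 members passed in either, where 14.9% (PBS) and 6.28% (siRNA) of all genes had an unadjusted p under 0.05. Without the block 19 members were lower with PBS and 3 with siRNA, and the share over all genes for that setting is not given here. Of the 24 members lower with PBS, 12 were also lower with siRNA, and the like share over all genes is not given here. SLC7A11 fell by 1.35 with PBS (SE 0.26) and had 0.04 ± 0.18 with siRNA, and ATF4 fell by 0.42 with PBS (SE 0.09) and had 0.16 ± 0.09 with siRNA. PSAT1 fell by 1.00 with PBS (SE 0.18) and had -0.33 ± 0.15 with siRNA.

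Of the wider pathway, 8 of the 10 other cytosolic tRNA ligases were lower in each interval, and 7 of 13 genes of the eIF2 list were lower in each. KLHL24, one of the further ATF4 targets, went the other way and was higher by 1.57 from 10 to 24 h and by 0.90 from 24 to 48 h. The epithelial markers moved with time as well, with 5 of 8 lower and 2 of 8 higher in each interval, and their summed level in the controls ran from 7369 to 8778 CPM at 10 h, 6428 to 7325 CPM at 24 h and 4120 to 6045 CPM at 48 h. The summed level of the fibroblast and endothelial markers was between 24.6 and 33.1 CPM at 10 h and between 62.0 and 75.7 CPM at 48 h. Their part in the fall of the members was not tested, and fewer cells of a kind and less RNA per cell cannot be told apart in such libraries.

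**Figure D3:**
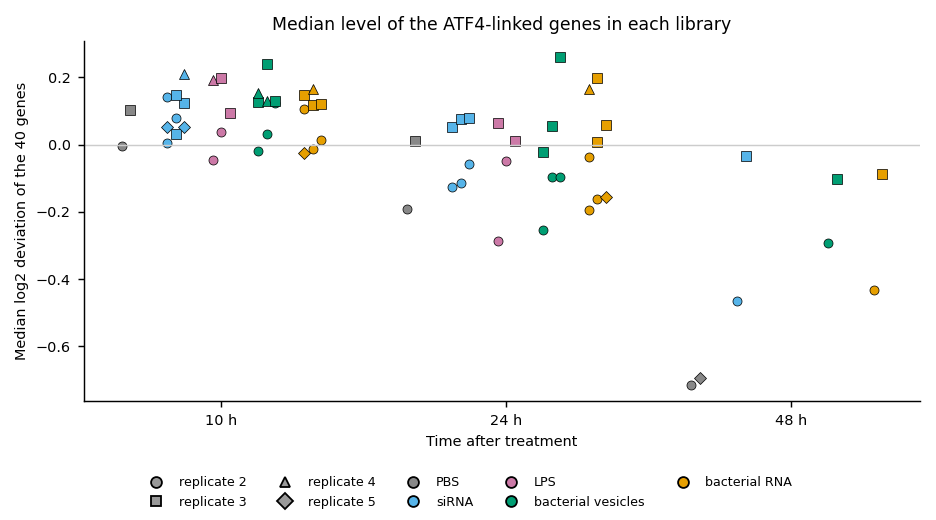
Median over the 40 genes of the log2 deviation (log2 of CPM + 0.5) from each gene's mean over 66 libraries, one point per library, by time and kind of treatment, with shapes for replicate numbers. The medians lie between -0.05 and 0.24 at 10 h and between -0.29 and 0.26 at 24 h, and the PBS libraries at 48 h are lowest, at -0.72 and -0.69.

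The difference between the effect of L. casei MVs at 48 h and at 24 h, each against PBS, passed for 3 members, where 0.016% of all genes were higher. They were SLC7A11 (1.71 ± 0.31), MTHFD2 (0.82 ± 0.16) and ATF4 (0.63 ± 0.13), and no member was lower. At 24 h the libraries with MVs had 11.9 and 12.9 CPM of SLC7A11 and those with PBS 10.1 and 13.9 CPM, which overlapped. The effect of L. casei MVs over PBS less that of L. casei RNA over siRNA at 48 h passed for 5 members, where 0.0746% of all genes were higher. They were SLC7A11 (1.74 ± 0.31), PSAT1 (1.09 ± 0.24), MTHFD2 (0.91 ± 0.16), TARS1 (0.69 ± 0.13) and ATF4 (0.58 ± 0.13). The controls were unlike here, PBS for the MVs and siRNA for the RNA. Against that PBS group, SLC7A11, MTHFD2, TARS1 and ATF4 were also higher with siRNA and with L. casei RNA. Against siRNA at 48 h, neither MVs nor L. casei RNA had a member past the test. Both differences contain the PBS group at 48 h. Both counts were 0 without the replicate block and 0 with all deposited libraries, and with replicates 2 and 3 only they were 0 and 3.

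With P. mirabilis OMVs, members passed mainly in the comparisons with LPS. At 24 h OMVs against LPS in the medium had 5 members higher and none lower, where 0.149% of all genes were higher, with a median of 0.22 over the 40 genes and 0.01 over all genes. SLC7A11 was at 8.57 and 11.9 CPM with LPS and 18.5 and 21.1 CPM with OMVs, without overlap (0.96 ± 0.19, adjusted p = 0.0020, a fold of 1.95). PSAT1 was at 15.1 and 19.4 CPM with LPS and 23.7 and 38.9 CPM with OMVs, where the lower library with OMVs still exceeded the higher with LPS (0.89 ± 0.15, adjusted p = 0.00021). The count was 0 without replicate 3 of the OMVs, 0 without replicate 2 of LPS and 0 without the replicate block. The others were MTHFD2 (0.50 ± 0.10), GARS1 (0.47 ± 0.08) and SHMT2 (0.45 ± 0.09).

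MTHFD2 was at 68.5 and 100 CPM with LPS at 24 h and 93.1 and 143 CPM with OMVs, so that the groups overlapped across replicates and OMVs exceeded LPS within each replicate number. SHMT2 did not overlap, at 89.7 and 107 CPM with LPS and 117 and 150 CPM with OMVs, and neither did GARS1, at 121 and 127 CPM with LPS and 159 and 182 CPM with OMVs. ATF4 (0.17 ± 0.09), DDIT3 (0.06 ± 0.19) and ASNS (0.70 ± 0.52) did not pass. None of the other pathway genes passed at 24 h.

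Against PBS at 24 h the OMVs had 1 member higher, GARS1 (0.45 ± 0.09, adjusted p = 0.0019), and none lower, where 0.0959% of all genes were higher. It was 0 without replicate 3 of the OMVs or replicate 2 of PBS and 3 without replicate 2 of the OMVs, and 0 without the block. GARS1 was at 119 and 132 CPM with PBS, below both libraries with OMVs. At an unadjusted p under 0.05, 16 members were higher and 0 lower, where 2.41% of all genes were higher and 2.31% lower at that level. Of the 40 members 36 had a positive log2 fold change, at a median of 0.23, and of all genes 50.2% had one. SLC7A11 had 0.73 ± 0.19 (adjusted p = 0.12), SHMT2 0.36 ± 0.09 (adjusted p = 0.11) and PSAT1 0.54 ± 0.15 (adjusted p = 0.24). ATF4 had 0.01 ± 0.09, DDIT3 -0.07 ± 0.19 and ASNS 1.30 ± 0.59.

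At 10 h OMVs against LPS also had 5 members higher and none lower, where 1.3% of all genes were higher. The count was 0 without replicate 2 of the OMVs, 0 without either replicate of LPS, 3 without replicate 3 or 4 of the OMVs and 0 without the block. The members were the carrier pair SLC7A5 (0.46 ± 0.13) and SLC3A2 (0.30 ± 0.08), the tRNA ligases GARS1 (0.31 ± 0.07) and TARS1 (0.30 ± 0.08), and MTHFD2 (0.30 ± 0.09). SLC7A5 was at 604 and 609 CPM with LPS, 730 and 632 CPM with PBS, and 848, 831 and 839 CPM with OMVs. SLC3A2 was at 342 and 310 CPM with LPS, 358 and 333 CPM with PBS, and 409, 397 and 394 CPM with OMVs. For both genes all OMV libraries lay above those of LPS and PBS. SLC7A11 had 0.45 ± 0.18 at 10 h and did not pass (adjusted p = 0.16), nor did ATF4 (0.14 ± 0.08), DDIT3 (-0.06 ± 0.16) or ASNS (0.07 ± 0.42).

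In the same comparison at 10 h other pathway genes changed in both directions. EIF2S1, the eIF2 alpha subunit (0.29), the tRNA exporter XPOT (0.27), the carrier SLC7A6 (0.35) and the phenylalanine ligase subunit FARSA (0.35) rose. KLHL24 (-0.80) and the carriers SLC7A9 (-1.30) and SLC38A3 (-0.97) fell.

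OMVs against PBS at 10 h had 0 members past the edgeR test and 0 by DESeq2, where 1.06% of all genes passed in either direction. At an unadjusted p under 0.05, 7 members were higher and 1 lower, where 5.24% of all genes were higher and 6.27% lower, and the members' median was 0.16. ATF4 had 0.16 ± 0.08 (adjusted p = 0.44), DDIT3 -0.29 ± 0.17 and ASNS 0.18 ± 0.47. The change in the OMV effect from 10 to 24 h passed for 0 members, where 0.032% of all genes passed.

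**Figure D4:**
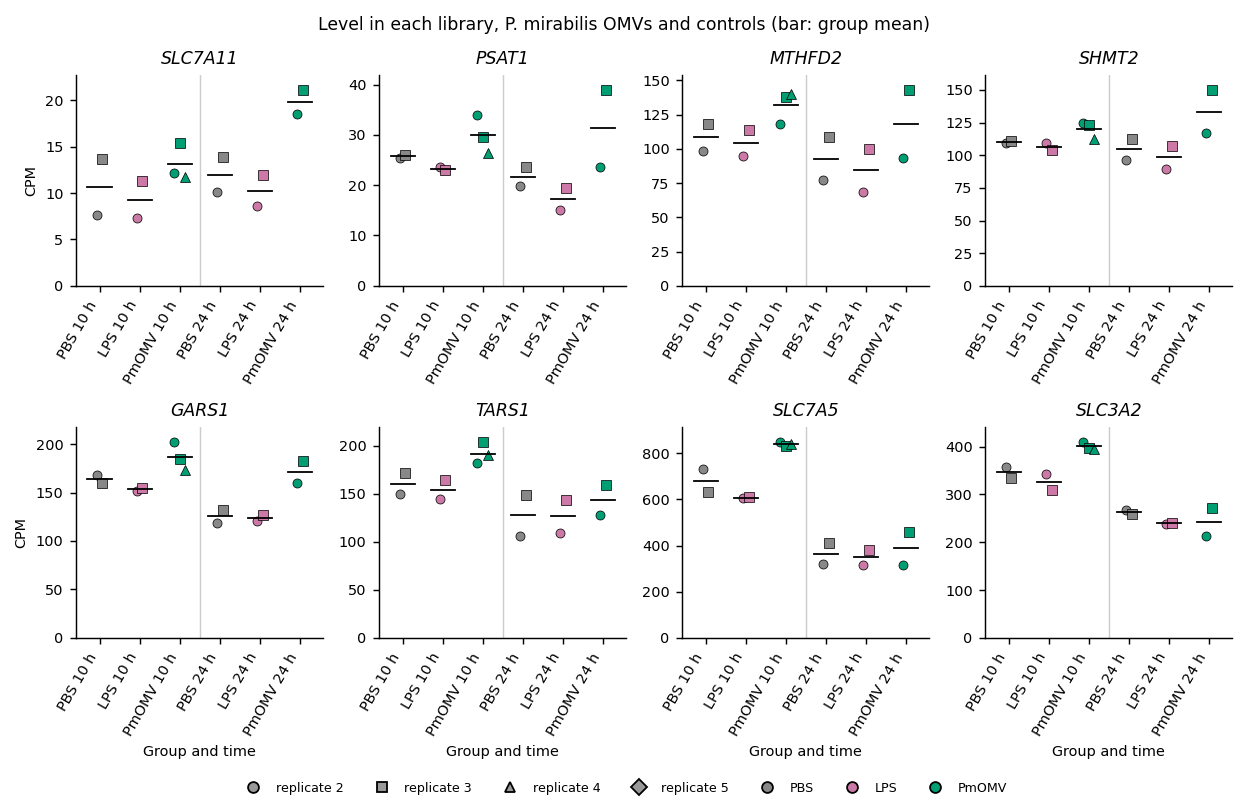
CPM of 8 genes in each library of PBS, LPS in the medium and P. mirabilis OMVs (PmOMV) at 10 and 24 h, with marker shapes for replicate numbers and bars for group means. At 24 h both OMV libraries lie above PBS and LPS for SLC7A11, PSAT1, SHMT2 and GARS1, and at 10 h the 3 OMV libraries do so for SLC7A5, SLC3A2, GARS1 and TARS1.

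The 15 other comparisons of a treatment with its control had 0 members past the test, by edgeR and by DESeq2. They were the RNA of E. faecalis, P. mirabilis and L. casei at each time, with a single dose per species. The others were LPS by both routes, E. faecalis MVs, and L. casei MVs at 10 and 24 h. Of all genes 0.0373% passed for L. casei MVs at 10 h, 0.00533% at 24 h and 0% in the other 13. The members' median log2 fold change lay between -0.08 and 0.09. At an unadjusted p under 0.05 no more than 4 members passed in any of them, where 2.4% to 7.46% of all genes did. The 4 were lower with E. faecalis RNA at 10 h, where 6.3% of all genes passed in either direction. P. mirabilis RNA against transfected LPS also had 0 members past the test at 10 and 24 h by both tools, where 0% of all genes passed.

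Between species, OMVs of P. mirabilis against L. casei MVs had 0 members past the edgeR test at 10 h, where 0.506% of all genes passed, and 0 at 24 h, where 0.0692% passed. At an unadjusted p under 0.05, 7 and 8 members were higher with OMVs, where 3.35% and 2.78% of all genes were. L. casei MVs against E. faecalis MVs also had 0 members, where 0.00533% and 0.0107% of all genes passed. With an unadjusted p under 0.05 there were 2 and 1 members, where 6% and 4.11% of all genes passed. DESeq2 called 0 in all 4. The vesicle doses differed between species. Transfection of siRNA against PBS, over 10 and 24 h, had 0 members by both tools, where 0% of all genes passed, with 9 higher at an unadjusted p under 0.05, where 4.7% of all genes were, and a median of 0.07.

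The members also differed between replicate numbers. Replicate 3 had 23 members higher and 7 lower than replicate 2, where 31.1% of all genes were higher and 31.1% lower. The folate enzyme ALDH1L2 (1.77 ± 0.11), the reelin receptor VLDLR (1.40 ± 0.09) and ATF3 (1.24 ± 0.12) differed most, followed by GDF15 (0.74 ± 0.09) and ATF5 (0.65 ± 0.03). DDIT3 (-0.35 ± 0.05) and PHGDH (-0.27 ± 0.02) were lower in replicate 3, and ATF4 itself had 0.02 ± 0.02. For ALDH1L2 the 24 h libraries of replicate 2 had 0.473 CPM with PBS, 0.463 with LPS and 1.09 with OMVs, and those of replicate 3 had 2.62, 2.69 and 4.61 CPM. Of the 20 members higher with L. casei MVs at 48 h, 10 were also higher and 3 lower in replicate 3 than in replicate 2. Markers of other cell types differed between these replicate numbers as well. Of 4 blood cell markers tested 2 were higher and 2 lower, and LYZ, which encodes lysozyme, was higher by 4.14 ± 0.04. The summed level of the blood cell list was 12.2 to 21.4 CPM in the libraries of replicate 2 and 149.9 to 217 CPM in those of replicate 3. Of 3 fibroblast and endothelial markers 2 were higher (COL3A1, 2.62 ± 0.20, and COL1A1, 0.19 ± 0.04), with summed levels of 21.1 to 75.7 and 23.2 to 75.7 CPM. Of 8 epithelial markers 4 were higher, with KRT20 at 2.35 ± 0.13, and 2 lower, with CDX2 at -0.30 ± 0.03, and the summed levels were 4120 to 8818 and 5689 to 8269 CPM. The part of these in the members' differences was not tested. The labels do not say what a replicate number stands for.

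**Figure D5:**
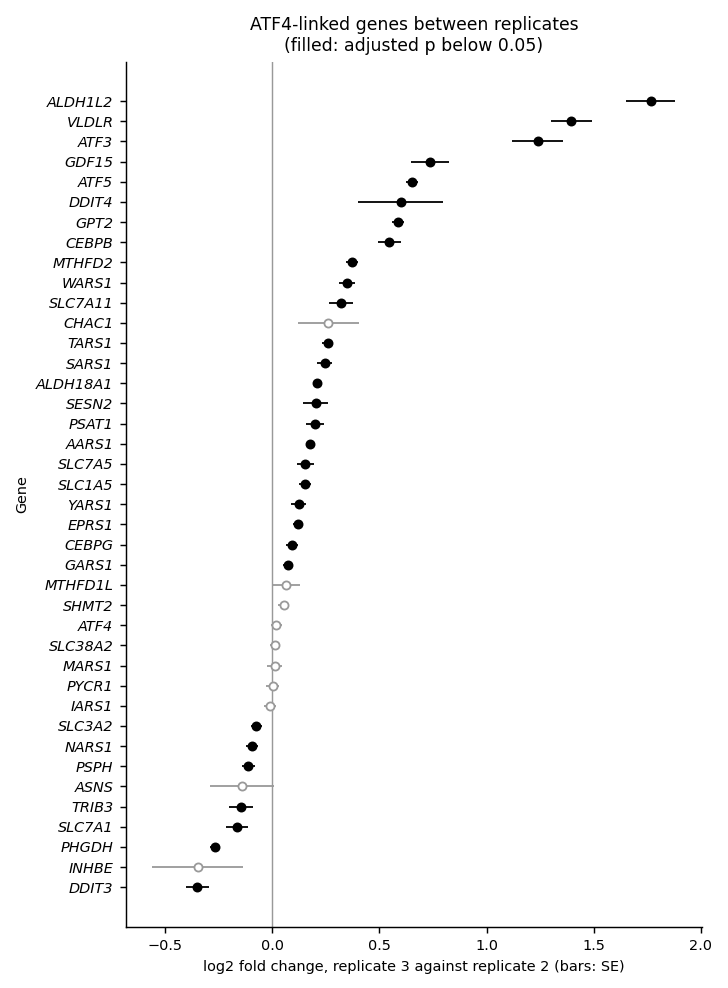
Log2 fold change of each of the 40 genes between replicate 3 and replicate 2 over all groups and times, with SE as bars and filled points where the adjusted p was below 0.05. ALDH1L2, VLDLR and ATF3 lie above 1.2, ATF4 lies at 0.02 and DDIT3 is lowest at -0.35.

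With all deposited libraries, the set-aside lanes included and the same replicate block, no member passed in any comparison of a treatment with its control or with LPS, in those of siRNA or L. casei RNA with PBS at 48 h, or from 24 to 48 h. The median over the members was then 0.13 for L. casei MVs against PBS at 48 h, with SLC7A5 at -0.07 and SLC3A2 at -0.01 in place of their positive changes. It was 0.26 for OMVs against LPS at 24 h, where 14 members were higher and 1 lower at an unadjusted p under 0.05 and 10.1% of all genes passed that level in either direction.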

How the data were processed

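RNA-seq was run on total RNA from Caco-2 cells. Per the labels, the authors used STAR and the GRCh38 build for alignment and featureCounts for counting, and the deposited values are raw counts of reads per gene without normalisation. The methods count primary alignments and list no option for strand or for reads shared by overlapping genes. Symbols were assigned by gene ID, with 62030 exact matches of 63241 and 62666 with the version left aside. Groups came from the labels alone.

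The 40 members, the lists and the tests were chosen with earlier results of these data known, and the lanes set aside were part of the rule for the members. Genes were kept by filterByExpr over all deposited libraries, which left 18775 of the 46395 with a count. The 66 libraries kept entered 1 fit in edgeR 4.0.16 (R 4.3.3), with TMM scaling, a coefficient per group, the replicate number as an additive block, a dispersion trend and the robust option. The p-values came from quasi-likelihood F tests (two-sided) and were adjusted over all genes tested within each comparison. The SE of a log2 fold change was taken as its size divided by the root of F, and CPM uses the TMM-scaled library sizes. The labels do not say whether libraries of a group came from separate cultures, so the p-values reflect only the spread between libraries, which may be technical.

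Pairing by replicate number was checked by correlating the deviations of same-numbered libraries over the 1500 most variable genes. In all 37 contrasts with at least 2 pairs r lay between 0.449 and 0.879. The number thus pairs the libraries by the data, since the labels give no culture or day behind it. The fit was tested on simulated counts with known changes. Alternatives were all deposited libraries, no block, a block within each time, replicates 2 and 3 only, lane terms, RLE factors, DESeq2 1.42.0, no filter, no robust option and leaving out each replicate. Up to 10 members past the test with the largest change were named per comparison, with ATF4, DDIT3 and ASNS in each main one. Some genes of the lists are not reported here.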

Additional observations from a re-analysis of the deposited data

Results flagged for a closer look

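Differences between effects were tested as interaction terms, and 8 of them passed at an adjusted p under 0.05. The effect of L. casei MVs over PBS was larger at 48 h than at 24 h for SLC7A11 by 1.71 on the log2 scale, for MTHFD2 by 0.82 and for ATF4 by 0.63. The effect of L. casei MVs over PBS exceeded that of L. casei RNA over siRNA at 48 h for SLC7A11 by 1.74, for PSAT1 by 1.09, for MTHFD2 by 0.91, for TARS1 by 0.69 and for ATF4 by 0.58. Because the controls were unlike, this is not a comparison of MVs with RNA. Against siRNA at 48 h, neither had a member past the test. All 8 contain the PBS libraries at 48 h, which were replicates 2 and 5. Without the replicate block, or with all deposited libraries, 0 members passed for either difference. In the groups with 4 libraries, 100 ng siRNA and L. casei RNA at 10 h, the 40 genes gave 80 sets of values, and in none did a single library stand apart by Dixon's criterion, which by chance would flag about 1 in 20.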

How the results depend on the processing

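The values here are counts of the 40 members past the test, and a setting that is not named left a count within 1.5 times. The share of all genes called under each setting is not given here or beside the leave-one-out counts above. Whether a changed count was particular to the members was therefore not assessed. With all deposited libraries the count was 0 for OMVs against PBS at 24 h, L. casei MVs against PBS at 48 h, OMVs against LPS at 10 and 24 h, siRNA and L. casei RNA against PBS at 48 h, all controls from 24 to 48 h, PBS or siRNA alone over that interval, and both differences of L. casei effects, and 11 for controls from 10 to 24 h. Under that setting the log2 change against PBS at 48 h reversed to -0.070 for SLC7A5 and -0.0090 for SLC3A2 with L. casei MVs, and to -0.0674 for SLC7A5 with siRNA.

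Without the replicate block the count was 0 for OMVs against PBS at 24 h, OMVs against LPS at 10 and 24 h and both differences of L. casei effects, 7 for L. casei MVs, 4 for siRNA and 2 for L. casei RNA against PBS at 48 h, and 3 for siRNA from 24 to 48 h. With the block within each time it was 4 and 7 for OMVs against PBS at 10 and 24 h, 10 and 8 against LPS, 13 for L. casei MVs against PBS and 1 against siRNA at 48 h, 6 and 9 for the differences of L. casei effects and 3 over the other 5 differences. With replicates 2 and 3 only it was 6, 4 and 2 for L. casei MVs, siRNA and L. casei RNA against PBS at 48 h, 2 for OMVs against LPS at 10 h, and 0 and 3 for the differences of L. casei effects. With lane terms it was 2 for OMVs against PBS at 24 h, 11 and 7 for L. casei MVs and siRNA against PBS at 48 h, 1 for the difference between 48 and 24 h and 1 over the other 5 differences. The difference between MVs and RNA had 8 by DESeq2 and 8 without the robust option, and without the filter the other 5 differences had 1.

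Leaving out 1 library gave 7 to 10 for L. casei MVs, 1 to 19 for siRNA and 1 to 9 for L. casei RNA against PBS at 48 h, 0 to 3 and 0 to 5 for OMVs against LPS at 10 and 24 h, and 0 to 3 against PBS at 24 h. A group left with 1 library was assumed to vary like the others. Of 1693 refits of the 172 single-gene results, 1247 still passed, 443 kept their direction without passing and 3 reversed. The cause was not tested. Within each group 2 to 4 libraries and, for INHBE and ASNS, few reads limit these comparisons.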
